A study of Gossypium hirsutum with 24 samples.

Results

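Galactinol synthases and the seed imbibition 1-like galactosyltransferase SIP1 were represented by 5 probe sets of the 23977 that the cotton array carries. The annotation tables of the study named 3 of them galactinol synthase 1 (GolS1; Ghi.10579.1.S1_at, GhiAffx.36503.1.S1_at and GhiAffx.19500.1.S1_at), 1 galactinol synthase 2 (GolS2; GhiAffx.34543.1.A1_at) and 1 SIP1 (GhiAffx.16092.1.A1_s_at). These names rest on similarity to Arabidopsis proteins. Ghi.10579.1.S1_at and GhiAffx.36503.1.S1_at were assigned to the same UniGene cluster, Ghi.10579, whereas GhiAffx.19500.1.S1_at belonged to Ghi.13202, the GolS2 probe set to Ghi.21310 and the SIP1 probe set to Ghi.8192. The ending of the SIP1 identifier marks a probe set that may detect several similar transcripts. All 5 were selected on the difference between infested and control bolls in these arrays, so that difference is described here with its standard error and without a test.

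Galactinol synthase joins myo-inositol to the galactose of UDP-galactose. The product, galactinol, donates galactose to sucrose to give raffinose, and then to raffinose to give stachyose. In Arabidopsis the enzyme called SIP1 is a raffinose synthase and therefore acts on the product of galactinol synthase. These sugars accumulate in maturing seeds and in plant tissue under drought, heat, cold and salt, where they are known as osmoprotectants and scavengers of hydroxyl radicals. In Arabidopsis, GolS1 and GolS2 are targets of heat shock factors.

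The bolls came from field-grown Gossypium hirsutum cv. Bikaneri narma. In the biotic stress groups (BS), Helicoverpa armigera larvae were placed on flowers as they opened, and tissue was collected after 8 h (0 dpa, days post anthesis), after 2 days (2 dpa) and after 5 days (5 dpa). The 10 dpa BS bolls had lost their larva after 5 days and were then left for up to 10 days, so they may have been older than their label. Noninfested bolls of the same 4 stages served as controls (CN). Whole bolls were used at 0 and 2 dpa and, in BS, the infested portion at 5 and 10 dpa. Each of the 8 groups had 3 biological replicates, each a pool from 5 plants. CN and BS bolls grew in separate plots, so that plot and infestation cannot be told apart. A bulk array also cannot separate a change in the number of cells from a change in RNA per cell.

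The values were log2 expression centred on the median of each probe set over the 24 arrays. They therefore compare groups for 1 probe set, and give no absolute level and no comparison of level between probe sets. Array medians lay between -0.05 and 0.05, while the spread over probe sets differed between groups, from an SD of 0.35 to 0.36 in CN 2 dpa to 1.05 to 1.07 in BS 10 dpa. Probe sets for spiked-in hybridization controls averaged 0.58 to 0.84 log2 units higher in BS than in CN at the 4 stages, and those for spiked-in poly-A RNA 1.07 to 2.11 units higher. The part of these shifts in the values below was not tested, and values centred on both sets of controls are given beside printed values whose direction they turn. The study's processing had already quantile normalized the arrays, before the values were centred. A further quantile normalization here acted on the centred values and gave all arrays the same spread. It therefore widens groups that lie close to the probe set medians and narrows groups that lie far from them. Which scaling is nearer the true levels was not tested. Values after this quantile normalization are given where they change an order or a direction.

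The GolS2 probe set GhiAffx.34543.1.A1_at had the largest difference between BS and CN in the family, at 10 dpa as deposited and at 2 dpa after quantile normalization. CN bolls read -0.96, -0.95 and -1.12 at 0 dpa, -1.06, -0.84 and -1.19 at 2 dpa, -0.89, -1.05 and -1.37 at 5 dpa, and -1.30, -1.39 and -1.22 at 10 dpa. In BS bolls the replicates read 0.94, 0.93 and 0.84 at 0 dpa, 3.97, 4.05 and 3.99 at 2 dpa, 2.02, 2.06 and 2.23 at 5 dpa, and 4.99, 4.97 and 4.95 at 10 dpa. All CN arrays thus lay between -1.39 and -0.84, and every BS array lay above all of them. The lowest BS array exceeded the highest CN array of its stage by 1.79 units at 0 dpa and by 6.17 units at 10 dpa. The difference BS minus CN was 1.91 ± 0.10 (SE, 3 arrays a group) at 0 dpa, 5.03 ± 0.10 at 2 dpa, 3.20 ± 0.10 at 5 dpa and 6.28 ± 0.10 at 10 dpa, which is 3.76-, 32.8-, 9.21- and 77.5-fold. As deposited, BS groups were ordered 0, 5, 2 and 10 dpa from low to high, and the 4 CN means spanned 0.30 units. Quantile normalization changed the differences to 2.18, 6.78, 3.11 and 4.79, put BS 2 dpa above BS 10 dpa, and moved the CN group of 2 dpa below its neighbours, so neither the BS order nor the narrow CN range held under that scaling.

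GhiAffx.19500.1.S1_at, the GolS1 probe set of cluster Ghi.13202, came closest to GolS2. In CN it read -2.54, -2.47 and -2.41 at 0 dpa, -1.84, -1.72 and -2.19 at 2 dpa, -2.14, -2.34 and -2.39 at 5 dpa, and -1.41, -0.74 and -1.20 at 10 dpa. In BS it read 0.86, 0.74 and 0.77 at 0 dpa, 3.19, 3.21 and 3.14 at 2 dpa, 2.86, 2.86 and 2.94 at 5 dpa, and 4.68, 4.92 and 4.90 at 10 dpa. Unlike GolS2, this GolS1 probe set was higher in CN 10 dpa than in any other CN group. BS exceeded CN by 3.26 ± 0.13 at 0 dpa, 5.10 ± 0.13 at 2 dpa, 5.18 ± 0.13 at 5 dpa and 5.95 ± 0.13 at 10 dpa, or 9.58-, 34.2-, 36.2- and 61.8-fold. With quantile normalization these became 3.19, 6.65, 4.84 and 4.42, so the order of the stages also changed. It was the member with the largest difference at 5 dpa under each scaling.

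The pair of GolS1 probe sets from cluster Ghi.10579 behaved differently from both and from each other. GhiAffx.36503.1.S1_at alternated in control bolls, with -2.63, -2.03 and -2.60 at 0 dpa, -0.45, -0.44 and -0.41 at 2 dpa, -2.61, -2.47 and -2.60 at 5 dpa, and -0.47, -0.71 and -0.38 at 10 dpa. In BS bolls it read 1.82, 1.74 and 1.86 at 0 dpa, 1.62, 1.88 and 1.73 at 2 dpa, 0.38, 0.66 and 0.72 at 5 dpa, and 1.96, 2.02 and 1.91 at 10 dpa. As deposited, the means of the CN groups spanned 2.13 units and those of the BS groups 1.38 units. On that scale the difference between BS and CN changed with stage more through the controls than through the infested bolls. That difference was 4.23 ± 0.12 at 0 dpa, 2.18 ± 0.12 at 2 dpa, 3.15 ± 0.12 at 5 dpa and 2.49 ± 0.12 at 10 dpa, or 18.7-, 4.53-, 8.88- and 5.60-fold. Quantile normalization made these values 4.20, 2.52, 2.73 and 1.71, so 10 dpa instead of 2 dpa had the smallest. The stage differences themselves were not tested.

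Ghi.10579.1.S1_at was higher in infested bolls chiefly at the first collection. CN bolls read -1.39, -1.65 and -2.02 at 0 dpa, -0.13, -0.20 and -0.13 at 2 dpa, -0.56, -0.20 and 0.01 at 5 dpa, and 0.06, 0.27 and -0.01 at 10 dpa. BS bolls read 1.04, 1.11 and 1.16 at 0 dpa, 1.29, 1.17 and 1.09 at 2 dpa, -0.17, -0.30 and -0.55 at 5 dpa, and 0.61, 0.88 and 1.06 at 10 dpa. At 5 dpa the BS and CN arrays overlapped, the only overlap among the members at any stage. BS minus CN was 2.79 ± 0.15 at 0 dpa (6.91-fold), 1.33 ± 0.15 at 2 dpa, -0.09 ± 0.15 at 5 dpa and 0.74 ± 0.15 at 10 dpa. Centring on the poly-A controls turned the values of this probe set at 2 and 10 dpa to -0.78 and -0.33. Its 5 dpa value became -0.82 with hybridization control centring and -2.12 with poly-A centring.

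SIP1, GhiAffx.16092.1.A1_s_at, had the narrowest spread between replicates, with a pooled SD of 0.076 units. CN bolls read -1.37, -1.61 and -1.60 at 0 dpa, -0.96, -1.01 and -0.93 at 2 dpa, -1.13, -1.18 and -1.14 at 5 dpa, and 0.01, -0.01 and -0.06 at 10 dpa. BS bolls read 0.49, 0.58 and 0.49 at 0 dpa, 1.61, 1.66 and 1.57 at 2 dpa, -0.11, 0.07 and 0.13 at 5 dpa, and 2.57, 2.67 and 2.59 at 10 dpa. As deposited, the BS arrays of 5 dpa overlapped the CN arrays of 10 dpa. On that scale BS followed the order of GolS2 except that 5 dpa stood below 0 dpa. BS exceeded CN by 2.05 ± 0.07 at 0 dpa, 2.58 ± 0.07 at 2 dpa, 1.18 ± 0.07 at 5 dpa and 2.63 ± 0.07 at 10 dpa, or 4.13-, 5.99-, 2.27- and 6.18-fold. Quantile normalization made these differences 2.14, 3.47, 1.11 and 1.66, which changed the order of the stages. With poly-A centring of the deposited values the 5 dpa difference became -0.85.

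**Figure D1:**
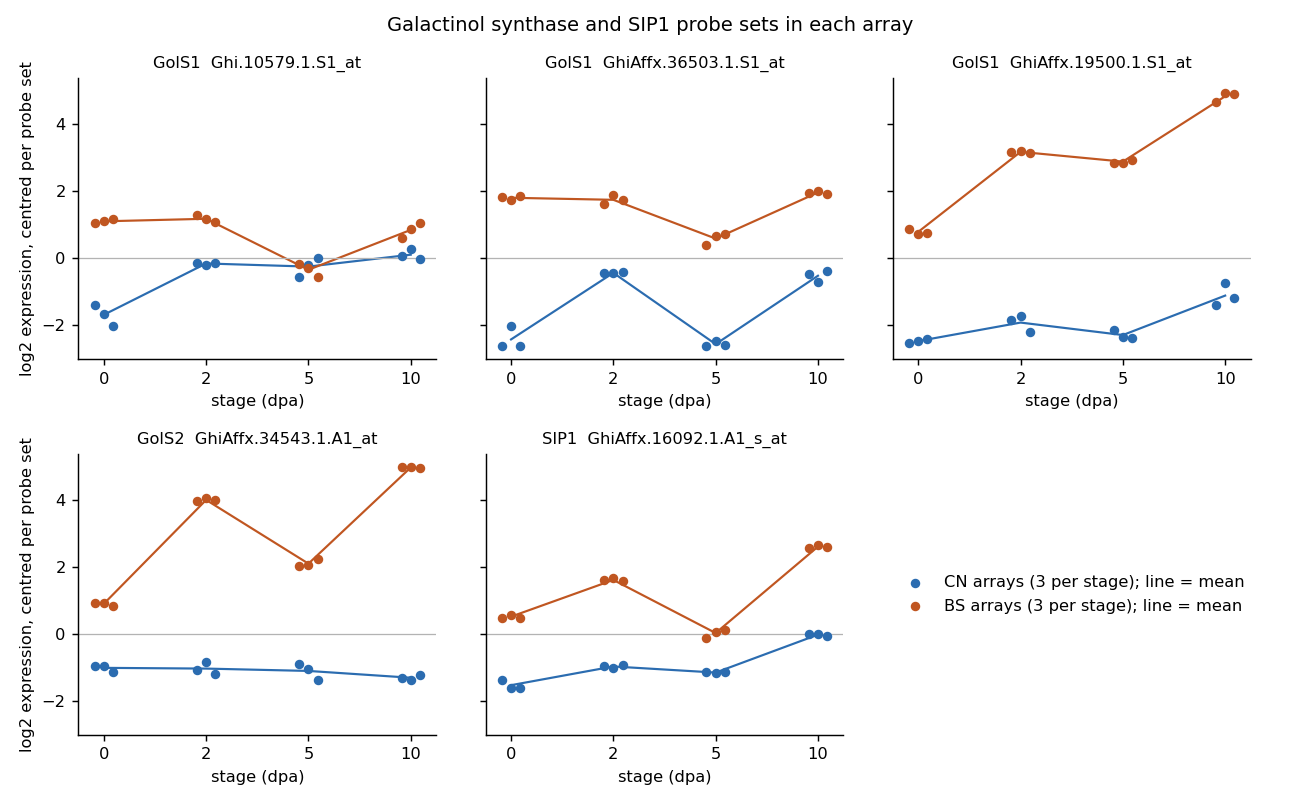
Log2 expression centred per probe set (vertical axis) against stage in dpa (horizontal axis, categories) for the 5 probe sets; points are single arrays, CN in blue and BS in orange, and lines join the means of 3 arrays. GolS2 lies between -1.39 and -0.84 in all CN arrays and reaches 4.95 to 4.99 in BS at 10 dpa, while Ghi.10579.1.S1_at overlaps between CN and BS at 5 dpa.

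**Figure D2:**
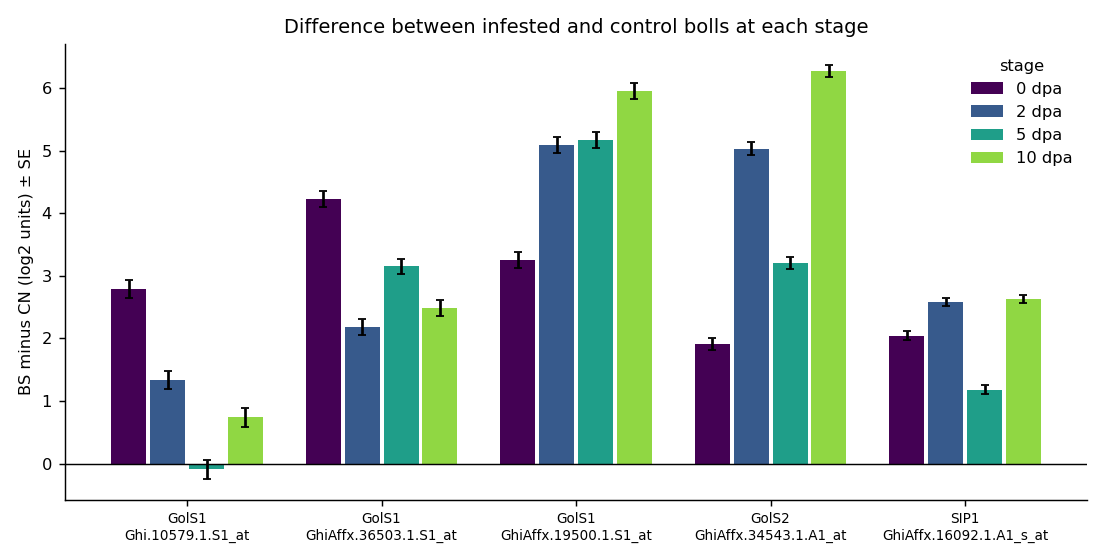
BS minus CN in log2 units (vertical axis) for each probe set, with 1 bar per stage and error bars of 1 SE from the fit over 24 arrays. The bars run from -0.09 for Ghi.10579.1.S1_at at 5 dpa to 6.28 for GolS2 at 10 dpa, and the 2 probe sets of cluster Ghi.10579 have their tallest bar at 0 dpa.

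Counted with the thresholds of the study for differentially expressed transcripts (DETs; adjusted p of at most 0.01 and fold of at least 3, here from limma), 5 of 5 members were called up in BS at 0 dpa, 4 at 2 dpa, 3 at 5 dpa and 4 at 10 dpa. Over all probe sets, 4.19% were called up at 0 dpa, 3.34% at 2 dpa, 6.39% at 5 dpa and 8.97% at 10 dpa. The members were chosen by these values, so nothing is read from their counts. Members not called were Ghi.10579.1.S1_at at 2, 5 and 10 dpa and SIP1 at 5 dpa. Every BS array lay above every CN array for 5 of 5 members at 0, 2 and 10 dpa and for 4 of 5 at 5 dpa, beside 23.3%, 36.8%, 39.8% and 27.7% of all probe sets at 0, 2, 10 and 5 dpa. Centring on the hybridization controls left 3 members called at 0 dpa, and poly-A centring 2, 2, 1 and 2 at 0, 2, 5 and 10 dpa. Poly-A centring lowered BS against CN by 1.33, 2.11, 2.03 and 1.07 units for every probe set at once at those stages, and hybridization control centring by 0.58, 0.84, 0.73 and 0.67. By construction every probe set thus kept its distance from the median of all probe sets, and nothing about the members is read from that.

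Development within the control bolls was a contrast that the choice of members did not use, although it shares arrays with those that it used. Here "rose" and "fell" mean an adjusted p of at most 0.01 in the limma fit, and a DET also needs a 3-fold change. The shares of all probe sets at each step are of DETs in either direction. No share was computed for "rose" and "fell", so nothing is read from those counts. Of 23977 probe sets, DETs up and down numbered 499 and 175, 258 and 510, and 337 and 130 over the CN steps in order. Over the BS steps they numbered 111 and 466, 630 and 127, and 283 and 1187. From 0 to 2 dpa, 4 of 5 members rose and 1 was a DET, beside 2.81% of all probe sets called in either direction. GhiAffx.36503.1.S1_at rose by 1.99 ± 0.12 (adjusted p = 2.83e-11) and Ghi.10579.1.S1_at by 1.53 ± 0.15 (adjusted p = 3.42e-08), whereas SIP1 and GhiAffx.19500.1.S1_at rose by 0.56 ± 0.07 and 0.55 ± 0.13. GolS2 changed by -0.02 ± 0.10 (adjusted p = 0.885; 0.04 with poly-A centring). When the arrays were quantile normalized again, the small rises turned to falls of -0.49 and -1.17 and GolS2 fell by -0.98 (limma adjusted p = 3.24e-07). In the same setting the rise of GhiAffx.36503.1.S1_at became 1.26, below the 3-fold threshold.

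From 2 to 5 dpa in CN, 1 of 5 members fell, GhiAffx.36503.1.S1_at, by -2.13 ± 0.12 (adjusted p = 8.11e-12), and it was the 1 DET (3.20% of all probe sets were called). The other members changed by between -0.37 and -0.07 and did not pass. Quantile normalization turned 3 of these 4 values to rises, of 1.45 for GhiAffx.19500.1.S1_at, 1.01 for GolS2 and 0.88 for SIP1, with limma adjusted p-values from 5.35e-10 to 2.88e-07. Hybridization control centring turned 3 of the 4, to between 0.05 and 0.17, and poly-A centring all 4, to between 0.07 and 0.37. From 5 to 10 dpa in CN, 3 of 5 rose, again with 1 DET beside 1.95% of all probe sets. GhiAffx.36503.1.S1_at rose by 2.04 ± 0.12 (adjusted p = 2.84e-11), GhiAffx.19500.1.S1_at by 1.18 ± 0.13 and SIP1 by 1.13 ± 0.07 (adjusted p = 2.15e-11). GolS2 (-0.20 ± 0.10, adjusted p = 0.109) and Ghi.10579.1.S1_at (0.35 ± 0.15, adjusted p = 0.0621) did not pass, and the latter became -0.34 with poly-A centring. With quantile normalization none of the members reached the DET thresholds in any of the CN steps, and with poly-A centring none did from 5 to 10 dpa.

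Within infested bolls GolS2 and SIP1 rose, fell and rose again over the 3 steps, and each of the other 3 members did not pass at 1 of the steps. From 0 to 2 dpa, 3 of 5 members rose and 2 were DETs, beside 2.41% of all probe sets. GolS2 rose by 3.10 ± 0.10 (adjusted p = 1.38e-15), GhiAffx.19500.1.S1_at by 2.39 ± 0.13 (adjusted p = 3.98e-12) and SIP1 by 1.09 ± 0.07, while both probe sets of cluster Ghi.10579 changed by less than 0.1 unit in the fit, 0.08 and -0.06, with overlapping arrays. The first of these, for Ghi.10579.1.S1_at, became -0.23 with hybridization control, -0.64 with poly-A centring and -0.30 with quantile normalization, under which GhiAffx.36503.1.S1_at fell by -0.41 (limma adjusted p = 0.0040). From 2 to 5 dpa, which was also the change from whole boll to infested portion, 4 of 5 fell and 1 was a DET, beside 3.16%. GolS2 fell by 1.90 ± 0.10 on the log2 scale (adjusted p = 1.78e-12), SIP1 by -1.58 ± 0.07, Ghi.10579.1.S1_at by -1.52 ± 0.15 and GhiAffx.36503.1.S1_at by -1.16 ± 0.12. SIP1 and Ghi.10579.1.S1_at stood just under the 3-fold threshold. Leaving out BS 2 dpa replicate 1 or 3, or BS 5 dpa replicate 2 or 3, made SIP1 a DET, and leaving out BS 5 dpa replicate 1 made Ghi.10579.1.S1_at one, which gave 2 DETs in each case. GhiAffx.19500.1.S1_at changed by -0.29 ± 0.13 (adjusted p = 0.0675), or by 0.06 and 0.24 with hybridization control and poly-A centring.

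From 5 to 10 dpa, after the larva had gone, 5 of 5 members rose in BS and 3 were DETs, beside 6.13% of all probe sets. The rises were 2.87 ± 0.10 for GolS2, 2.58 ± 0.07 for SIP1, 1.95 ± 0.13 for GhiAffx.19500.1.S1_at, 1.38 ± 0.12 for GhiAffx.36503.1.S1_at and 1.19 ± 0.15 for Ghi.10579.1.S1_at, with adjusted p-values from 8.52e-18 to 6.73e-07. All 5 rises kept their direction under each scaling tried. Quantile normalization shrank them to 1.5, 1.57, 0.41, 0.54 and 0.92 in that order, and then none was a DET and that of GhiAffx.19500.1.S1_at did not pass (limma adjusted p = 0.017). Hybridization control and poly-A centring each left no DET from 2 to 5 dpa, with GolS2 at -1.55 and -1.37.

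The 2 probe sets of cluster Ghi.10579 could be set against each other within each array, since each was centred over the same arrays. GhiAffx.36503.1.S1_at minus Ghi.10579.1.S1_at was -1.24, -0.38 and -0.58 in CN 0 dpa and 0.78, 0.63 and 0.70 in BS 0 dpa. At 5 dpa it was -2.06, -2.27 and -2.61 in CN and 0.56, 0.96 and 1.27 in BS. Its zero is set by the centring and has no meaning of its own, so only differences between arrays can be read. The 12 CN arrays lay between -2.61 and -0.24 and the 12 BS arrays between 0.33 and 1.36, with no overlap and with the widest gap at 5 dpa. Both probe sets were selected on BS against CN, so this separation is a description and no test. At each stage it restates that BS minus CN was larger for GhiAffx.36503.1.S1_at. How many other pairs of probe sets separate in this way was not computed. At 2 dpa the means were -0.28 ± 0.04 (SD, n = 3) in CN and 0.57 ± 0.20 in BS, and at 10 dpa -0.63 ± 0.31 and 1.12 ± 0.25. A shift of a whole array cancels in this difference, which is why control centring does not touch it.

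**Figure D3:**
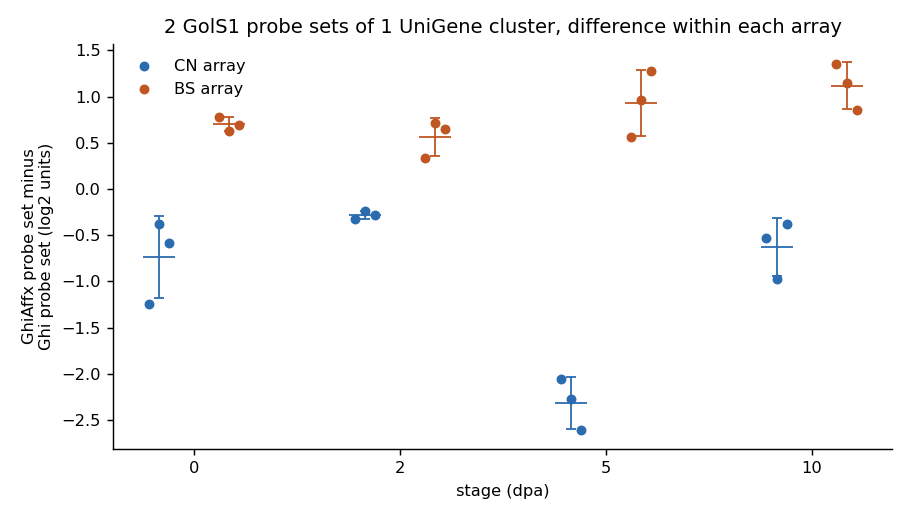
Difference between the 2 GolS1 probe sets of UniGene cluster Ghi.10579 within each array (vertical axis, log2 units) by stage in dpa (horizontal axis); points are arrays, horizontal marks are means of 3 and error bars are 1 SD. CN arrays lie between -2.61 and -0.24 and BS arrays between 0.33 and 1.36. Both probe sets were selected on BS against CN.

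As a description, GolS2 and GhiAffx.19500.1.S1_at had a Pearson correlation of 0.97 over the 24 arrays and 0.93 over the 12 BS arrays, as deposited. Over the 12 CN arrays it was -0.48, and GolS2 correlated negatively there with each other member, between -0.61 and -0.26. The value over 24 arrays includes the difference between BS and CN on which both probe sets were selected. GhiAffx.19500.1.S1_at and SIP1 correlated at 0.92 over the 12 CN arrays and 0.75 over the 12 BS arrays. Within BS, the pair from cluster Ghi.10579 correlated at 0.89, and GhiAffx.19500.1.S1_at correlated with its members at -0.11 and 0.11. The arrays of a group share stage and treatment, so these are not 24 independent points.

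Among 3298 other probe sets with a gene name, those whose 8 group means ran most like GolS2 were NAD kinase 1 (Ghi.3234.2.S1_s_at, r = 0.99), a homologue of a rice locus (Ghi.9210.3.S1_s_at, r = 0.99) and a signal recognition particle receptor alpha subunit (GhiAffx.63588.1.A1_at, r = 0.99). Most like GhiAffx.19500.1.S1_at were the histone ubiquitin ligase HUB1 (Ghi.9185.3.S1_at), a Rab GTPase (Ghi.8495.1.S1_s_at) and an oxidoreductase (Ghi.8284.2.A1_s_at), all at r = 0.99. GhiAffx.36503.1.S1_at ran with the dehydrin COR47 (Ghi.10639.1.S1_s_at, r = 0.98), the receptor-like kinase CRK18 (GhiAffx.2606.1.S1_at, r = 0.97) and ferritin 4 (Ghi.5515.1.A1_s_at, r = 0.97). Ghi.10579.1.S1_at ran with the nuclear factor Y subunit NF-YA3 (GraAffx.2162.1.S1_s_at, r = 0.94), a transferase (Ghi.4973.1.A1_s_at, r = 0.92) and the ethylene response factor ERF9 (Ghi.5157.1.S1_s_at, r = 0.92). SIP1 ran with NADH dehydrogenase subunit 1 (Ghi.7225.1.S1_s_at, r = 0.98), SRO5 (GhiAffx.64116.1.S1_at, r = 0.98) and the acyltransferase GPAT7 (Ghi.6416.1.A1_at, r = 0.97). With 8 points and 3298 candidates, such values are a ranking only.

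The other raffinose pathway probe sets that carried a name numbered 8. Their names also came from the DET tables of the study, so they too were selected on these arrays and are described without a test. By the same thresholds 2 of 8 were called up and 0 down at 0 dpa, 1 up and 3 down at 2 dpa, 3 up and 1 down at 5 dpa, and 5 up and 3 down at 10 dpa. The share of all probe sets called down was 1.28%, 4.46%, 2.46% and 11.5% at 0, 2, 5 and 10 dpa. Their median difference was 0.22, 0.59, 0.82 and 1.83 at those stages, beside medians of -0.08, 0.08, -0.11 and 0.08 over all probe sets. Hybridization control centring lowers both sets of medians by 0.58, 0.84, 0.73 and 0.67, and poly-A centring by 1.33, 2.11, 2.03 and 1.07. With either centring the pathway medians at 0 and 2 dpa turn negative, and with poly-A centring also that at 5 dpa.

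Of the genes that supply UDP-galactose, the 3 epimerase probe sets, for the enzymes that convert UDP-glucose to UDP-galactose, had higher means in BS at each stage as deposited. Control centring turned some of these directions, as given for each. UGE5 (GhiAffx.19354.1.S1_s_at) read -0.99, -0.81 and -1.24 in CN and 0.79, 0.86 and 1.00 in BS at 0 dpa, and -2.28, -2.40 and -2.38 in CN and 2.72, 2.94 and 2.73 in BS at 10 dpa. Its difference was 1.90 ± 0.10, 2.49 ± 0.10, 3.45 ± 0.10 and 5.15 ± 0.10 at 0, 2, 5 and 10 dpa as deposited, and 2.17, 3.28, 2.99 and 3.70 after quantile normalization, so it did not widen at each stage under both scalings. A further epimerase, Gra.2050.1.S1_s_at, differed by 2.82 ± 0.06 at 0 dpa, 0.51 ± 0.06 at 2 dpa, 3.38 ± 0.06 at 5 dpa and 3.09 ± 0.06 at 10 dpa. Its dip at 2 dpa went with a rise in the controls, from -3.06, -2.92 and -3.02 at 0 dpa to 0.16, 0.17 and 0.23 at 2 dpa and back to -2.62, -2.69 and -2.55 at 5 dpa. Hybridization control and poly-A centring turned the 2 dpa difference of Gra.2050.1.S1_s_at to -0.33 and -1.60. GhiAffx.36503.1.S1_at also read higher in CN at 2 dpa than at 0 and 5 dpa.

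UGE1 (Ghi.9279.2.A1_s_at) differed by 0.80 ± 0.15, 0.73 ± 0.15, 2.25 ± 0.15 and 2.79 ± 0.15 at 0, 2, 5 and 10 dpa. Poly-A centring turned its 0 and 2 dpa values to -0.54 and -1.38, and hybridization control centring its 2 dpa value to -0.12. Galactose kinase 1 (GhiAffx.6764.1.S1_s_at), which phosphorylates free galactose, reached a difference of 1.77 ± 0.11 at 10 dpa and was below the fold threshold before. UDP-glucose pyrophosphorylase (Ghi.4828.1.S1_s_at), which makes UDP-glucose, ran the other way. At 10 dpa its CN arrays read 3.36, 3.59 and 3.30 and its BS arrays -1.59, -1.75 and -1.60. Its difference was -1.57 ± 0.11 at 0 dpa, -2.05 ± 0.11 at 2 dpa, -3.21 ± 0.11 at 5 dpa and -5.06 ± 0.11 at 10 dpa. Quantile normalization made these values -2.65, -2.18, -3.67 and -3.19.

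Both genes that supply myo-inositol, the second substrate of galactinol synthase, were lower in BS at 2, 5 and 10 dpa. Inositol-3-phosphate synthase isozyme 2 (Ghi.9535.1.S1_s_at), which forms inositol phosphate from glucose 6-phosphate, read 1.04, 1.02 and 1.03 in CN and -1.75, -1.79 and -1.87 in BS at 2 dpa. Its difference was 0.15 ± 0.06 at 0 dpa, -2.84 ± 0.06 at 2 dpa, -0.80 ± 0.06 at 5 dpa and -2.27 ± 0.06 at 10 dpa. The inositol monophosphatase probe set (GhiAffx.46136.1.S1_s_at), whose family releases free inositol, differed by -1.28 ± 0.13, -2.37 ± 0.13, -1.57 ± 0.13 and -2.77 ± 0.13 at the 4 stages. The 0 dpa value of Ghi.9535.1.S1_s_at became -0.44 and -1.19 with hybridization control and poly-A centring. An alpha-galactosidase (GhiAffx.29477.1.S1_at), an enzyme of the kind that removes galactose from raffinose, overlapped between CN and BS at 0 dpa and stood 1.89 ± 0.12 higher in BS at 10 dpa. Over the 8 probe sets and 4 stages, 8 of 32 differences changed sign with hybridization control centring, 10 with poly-A centring and 0 with quantile normalization.

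**Figure D4:**
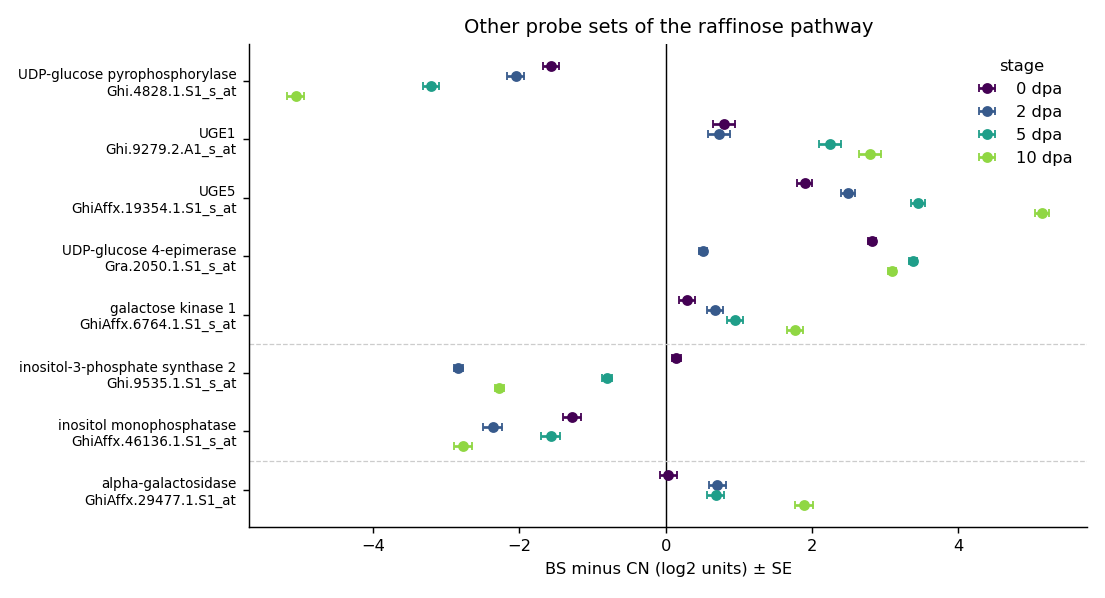
BS minus CN in log2 units (horizontal axis) for the 8 other named raffinose pathway probe sets (vertical axis), with 1 point per stage and error bars of 1 SE. Dashed lines part the UDP-galactose group, the myo-inositol group and the alpha-galactosidase; UGE5 reaches 5.15 and UDP-glucose pyrophosphorylase -5.06 at 10 dpa, and both myo-inositol genes lie below 0 from 2 dpa on.

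Lists picked by name as markers for the tissues of a boll moved with infestation as well, and their part in the values above was not tested. The fibre list held fasciclin-like arabinogalactan proteins, a kind of gene that the study places under cell wall, and the fibre protein GLP1. It is therefore not a list of fibre genes alone. Its probe sets averaged 1.89 to 1.93 over the CN arrays and -2.36 to -2.30 over the BS arrays at 10 dpa. There 14 of 14 were called down, after 3, 6 and 8 at 0, 2 and 5 dpa. At 5 dpa 1 was called up, with a difference of 1.62. Genes named for seed storage and late embryogenesis proteins averaged -0.11 to -0.09 in CN and 2.15 to 2.19 in BS at 2 dpa, and 0.03 to 0.06 and 3.27 to 3.36 at 10 dpa, where 4 of 6 were called up and 1 down. Their BS averages were lower at 5 dpa, 0.91 to 1.10, than at 2 and 10 dpa. These averages hide opposite directions. At 5 dpa 2 of the 6 were called up and 1 down, with differences between BS and CN from -4.7 to 6.3. Of 22 green tissue genes, 1, 17, 2 and 20 were called down at 0, 2, 5 and 10 dpa. At 0, 5 and 10 dpa 1 was called up, with differences of 3.35, 3.58 and 3.01. Over all probe sets the share called down was 1.28%, 4.46%, 2.46% and 11.5% at 0, 2, 5 and 10 dpa. The share called up was 4.19%, 3.34%, 6.39% and 8.97%. The 1 pollen-named probe set was called down at 10 dpa only. These lists, too, were named from the DET tables.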

How the data were processed

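Total RNA from 24 boll samples was hybridized to the Affymetrix cotton array. Per the labels and the study's methods, the authors processed the scans in GeneSpring GX with RMA, which subtracts background, quantile normalizes the arrays and summarizes probes by median polish, and deposited log2 values. The deposited log2 values have a median of 0 for each probe set over the 24 arrays, so they were centred per probe set; no scanner intensities or detection calls were used here. Control and reporter probe sets (103 and 52 of 24132) were left out, and no filter on low values could be set. Each array counts as 1 sample, and 3 arrays per group limit the precision.

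Group means were fitted with limma 3.58.1 in R 4.3.3 on all 24 arrays (8 groups, 16 residual degrees of freedom), with eBayes and Benjamini-Hochberg adjustment over 23977 probe sets; the fit was tested on simulated data. DETs needed a 3-fold difference with an adjusted p no higher than 0.01. Contrasts were BS against CN at each stage, and successive stages within CN and within BS. Alternatives were other scalings, thresholds, the methods' t-test, the replicate block and each array left out.

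Names of probe sets were read from the study's supplementary annotation; the array annotation listed 743 probe sets and 0 of the 5 members. The members, gene lists and tests were chosen with earlier results of these data known. Named were all members, raffinose pathway probe sets with a 3-fold difference at any stage, the 2 probe sets with the largest difference from the sucrose and heat shock factor lists, and the 3 named probe sets most correlated with each member. Other probe sets of the sucrose and heat shock factor lists were named after their values were seen.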

Additional observations from a re-analysis of the deposited data

Results flagged for a closer look

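For a pair of probe sets, every BS array stood on one side of every CN array at one stage and on the other side at later stages. The difference between stages was not tested. Inositol-3-phosphate synthase isozyme 2 (Ghi.9535.1.S1_s_at) stood 0.15 log2 units higher in BS at 0 dpa, and its differences were -2.84, -0.80 and -2.27 at 2, 5 and 10 dpa. At 0 dpa the nearest arrays were -0.28 in CN and -0.27 in BS, so that side rests on a gap far below the spread of the replicates. Centring on the hybridization and poly-A controls made the 0 dpa difference -0.44 and -1.19, which removes the change of side.

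Sucrose synthase 4 (Ghi.3964.1.A1_s_at), named here after its values were seen, differed by 0.079 at 0 dpa, where CN arrays read 0.19, 0.15 and 0.11 and BS arrays 0.24, 0.22 and 0.23. It differed by -0.96 at 2 dpa, -0.66 at 5 dpa and -2.20 at 10 dpa. The 0 dpa difference became -0.50 and -1.25 with hybridization control and poly-A centring, so this change of side, too, depends on the scaling. As deposited, none of the 5 galactinol synthase and SIP1 probe sets had such opposite sides. With hybridization control and poly-A centring, the differences of Ghi.10579.1.S1_at were 2.21 and 1.46 at 0 dpa and -0.82 and -2.12 at 5 dpa. Poly-A centring also gave SIP1 0.71 at 0 dpa and -0.85 at 5 dpa. Whether single arrays then stood on opposite sides was not tested.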

How the results depend on the processing

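Arrays carried no level for a probe set and no background signal, so dim probe sets could not be told from bright ones. Centring on array medians, the fit to the arrays compared, the methods' t-test and an adjusted p of at most 0.05 moved no count by over 1.5 times. With the replicate block, 5, 4, 3 and 4 members were called up at 0, 2, 5 and 10 dpa and no other count moved; same-numbered CN and BS arrays deviated together at r of -0.24 to 0.11 over 12 pairs, so the numbers were not taken as a pairing.

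Members called up: hybridization control centring gave 3 at 0 dpa; poly-A centring, chosen after seeing the data, gave 2, 2, 1 and 2. Leaving out 1 array kept 5, 4, 3 and 4. Quantile normalization kept these counts too but moved 13 of the 20 differences of the members by more than the replicate SD, among them GolS2 at 2 and 10 dpa, to 6.78 and 4.79.

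Members changed: quantile normalization gave 0 in CN at each step and 0 in BS from 5 to 10 dpa. Poly-A centring gave 2 in CN from 0 to 2 dpa, 0 in CN from 5 to 10 dpa and 0 in BS from 2 to 5 dpa, where hybridization control centring also gave 0. A fold of at least 2 gave 2 and 3 in CN from 0 to 2 and 5 to 10 dpa, and 4 and 5 in BS from 2 to 5 and 5 to 10 dpa. Leaving out 1 array gave 1 to 2 in CN from 0 to 2 dpa (2 without CN 0 dpa replicate 1) and 1 to 2 in BS from 2 to 5 dpa (2 without BS 2 dpa replicate 1 or 3, or any BS 5 dpa replicate).

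Other pathway probe sets called up: hybridization control centring gave 1 at 0 dpa and 3 at 10 dpa, poly-A centring 0, 0, 0 and 3, and quantile normalization 3 at 10 dpa. Called down: quantile normalization, hybridization control centring and a fold of at least 2 each gave 2 at 0 dpa and 2 at 5 dpa, and poly-A centring 2 and 3. Leaving out 1 array gave 0 to 1 at 0 dpa (1 without CN replicate 3 or BS replicate 2) and 1 to 2 at 5 dpa (2 without CN replicate 3 or BS replicate 1). The cause of these moves was not tested, save that control centring shifts every probe set alike.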

Other observations

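Heat shock factors, which in Arabidopsis include activators of galactinol synthase genes, were represented by 8 named probe sets, again taken from the DET tables. In BS against CN, 1 was called up and 1 down at 0 dpa and at 2 dpa, 5 up and 0 down at 5 dpa, and 6 up and 1 down at 10 dpa, with medians of 0.78, 0.58, 2.18 and 3.05 log2 units. Hybridization control centring turned the 2 dpa median negative, and poly-A centring those at 0 and 2 dpa. Of all probe sets, 4.19%, 3.34%, 6.39% and 8.97% were called up at 0, 2, 5 and 10 dpa. The shares called down were 1.28%, 4.46%, 2.46% and 11.5%. Among the heat shock factors the 2 with the largest differences were Ghi.9246.2.S1_at, named HSFB2A, and GraAffx.12789.1.A1_s_at, named HSFB2B. The former differed by 1.57 ± 0.06, 1.38 ± 0.06, 4.0 ± 0.06 and 5.02 ± 0.06 at 0, 2, 5 and 10 dpa. The latter differed by 1.25, 0.20, 2.17 and 3.98 (each ± 0.12). Poly-A centring turned Ghi.9246.2.S1_at at 2 dpa to -0.74 and GraAffx.12789.1.A1_s_at at 0 and 2 dpa to -0.08 and -1.91. Hybridization control centring turned the latter at 2 dpa to -0.64. Gra.952.1.A1_at, also named HSFB2A, differed by 0.65, 0.63, 2.24 and 3.25 (each ± 0.12) and was called up at 5 and 10 dpa. Its 0 and 2 dpa values became -0.69 and -1.49 with poly-A centring, and its 2 dpa value -0.22 with hybridization control centring. Another pair was chosen after their values were seen. The probe set named HSFA2 (Ghi.10292.1.S1_s_at), the only class A factor of the list, differed by 0.91, 1.28, 2.19 and 2.84 (each ± 0.06) and was called up at 5 and 10 dpa. Poly-A centring turned its 0 and 2 dpa values to -0.42 and -0.83. GraAffx.28942.1.S1_s_at, named HSFB1, was called up at all 4 stages, with 1.78, 2.16, 2.58 and 3.79 (each ± 0.11). It kept its direction under each scaling, at 0.05 with poly-A centring at 2 dpa. Ghi.2683.1.A1_s_at, also named HSFB1, differed by 0.11, 0.53, 0.70 and 1.76 (each ± 0.17) and was called up at 10 dpa only. Hybridization control centring turned its values before 10 dpa to -0.47, -0.32 and -0.03, and poly-A centring to -1.22, -1.59 and -1.33. The probe sets named HSFB4 (GhiAffx.23676.1.S1_at) and HSFC1 (GhiAffx.63874.1.S1_at) had lower means in BS at each stage as deposited. Quantile normalization turned HSFC1 at 2 dpa to 0.15. At 10 dpa it brought HSFB4 to -0.89 and Ghi.2683.1.A1_s_at to 1.15, both below the 3-fold threshold. The controls of Ghi.9246.2.S1_at read -1.27, -1.15 and -1.33 at 0 dpa and -3.06, -3.04 and -3.09 at 10 dpa.

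Sucrose, the acceptor of galactose in raffinose synthesis, is cleaved by sucrose synthases and invertases. Of 4 such named probe sets, 0 were called up at any stage and 0, 1, 2 and 4 were called down at 0, 2, 5 and 10 dpa. The shares of all probe sets called down at those stages were 1.28%, 4.46%, 2.46% and 11.5%. Sucrose synthase 1 (Ghi.2039.2.S1_s_at) differed by -1.07 ± 0.14, -1.85 ± 0.14, -1.65 ± 0.14 and -5.40 ± 0.14, and the vacuolar invertase Ghi.4486.1.S1_s_at by -0.88 ± 0.09, -0.76 ± 0.09, -2.54 ± 0.09 and -3.99 ± 0.09. Ghi.5423.1.A1_at, another probe set named sucrose synthase 1, differed by -1.13, -0.75, -1.14 and -1.67 (each ± 0.14). It was called down at 10 dpa only, and quantile normalization brought that difference to -0.97, below the 3-fold threshold. The 10 dpa difference of sucrose synthase 4 (Ghi.3964.1.A1_s_at) became -1.16 under that scaling, also below the threshold. At 10 dpa GolS2 and Ghi.2039.2.S1_s_at had differences of 6.28 and -5.40 in the same bolls as deposited, and 4.79 and -3.56 after quantile normalization.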
